A study of Mus musculus with 12 samples.

Results

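The mitochondrial respiratory chain genes are the nuclear genes for the protein complexes that carry electrons from NADH and succinate to oxygen and use the energy to make ATP. They were chosen by gene symbol: every probe of the array platform whose symbol starts with Ndufa, Ndufb, Ndufc, Ndufs, Ndufv, Uqcr, Cox4, Cox5, Cox6, Cox7, Cox8 or Atp5, or is Sdha, Sdhb, Sdhc or Sdhd. The symbols took in 135 probes of 87 genes. A probe was tested where 3 or more of the 12 arrays gave it a detection p-value below 0.01, which left 115 probes of 81 genes among 19595 tested probes of 10764 genes over the whole array. Measured were 12 C57BL6/J mouse embryos, taken 8.5 days post coitum, and the total RNA of each was hybridised to its own one-colour Illumina BeadChip. They fell into 4 groups of 3, in which wildtype or Cited2 -/- embryos came from a mother fed either the Control diet or the High fat diet. Cited2 encodes a co-regulator of transcription, a partner of CBP and p300, and the design crossed its loss with the maternal diet. All mothers and fathers were heterozygous for Cited2, and all mothers ate a standard chow before moving at 6 weeks of age to a formulated diet, which they received for 8 weeks before mating and through pregnancy. Yolk sac and allantois had been dissected away, and somites counted so that stages matched, per the labels' protocols. The labels give neither litter nor sex of an embryo, and p-values measure the spread between these embryos.

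Complex I (NADH dehydrogenase) passes electrons from NADH to ubiquinone, complex II (succinate dehydrogenase) does so from succinate, complex III (the cytochrome bc1 complex) hands them to cytochrome c, and complex IV (cytochrome c oxidase) gives them to oxygen. Complexes I, III and IV pump protons across the inner membrane, and complex V (ATP synthase) lets them back to make ATP. Most subunits come from nuclear genes, transcribed in nearly every cell, whose promoters are known for binding of NRF1 and of GABP, a factor of the ETS family. Several cytochrome c oxidase subunits exist as a widely used and a tissue-restricted isoform, such as Cox6a1 and the heart and skeletal muscle isoform Cox6a2. The heart tube forms and begins to beat around the stage sampled here.

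The 81 tested genes comprised 33 of complex I, 7 whose symbols the prefixes also take in although they encode complex I assembly factors (Ndufaf), 3 of complex II, 7 of complex III, 14 of complex IV, 16 of complex V and 1 pseudogene (Ndufs5-ps). Ndufa4 was placed in complex IV, where its product works. Of the 115 probes, 99 were detected on all 12 arrays. The 20 other probes chosen by symbol failed the detection filter, and 6 genes had no other probe: Sdha, the flavoprotein of complex II; Ndufs1, an iron-sulphur subunit of complex I; Ndufaf6, an assembly factor; and the isoforms Cox7b2, Cox8b and Cox8c. Each of these 6 was detected on 0 of 12 arrays, which for Sdha and Ndufs1, core subunits, says only that these probes gave no signal. Cox8a, Ndufa4l2 and Atp5g1 were not analysed here.

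Promoters are shown for 3 cytochrome oxidase genes, because the isoform pairs of this complex recur below. RefSeq promoters of build GRCm38.p6, from 250 bases before to 50 bases after the start of transcription, were matched by symbol to 69 of the 81 genes; Cox6a2 was not among them. Capitals mark any match, on either strand, to the NRF1 palindrome, whose letters stand first in capitals in Cox6a1, the ETS core CCGGAAG, the YY1 core AAGATGGC, the SP1 box GGGCGG, the TATA box TATAAA or the muscle E-box CAGCTG, and overlapping matches counted for each motif. Each sequence is written 5′ to 3′ along the gene's strand, with its place in parentheses.
Cox6a1 (chr5:115348909-115349208, minus strand): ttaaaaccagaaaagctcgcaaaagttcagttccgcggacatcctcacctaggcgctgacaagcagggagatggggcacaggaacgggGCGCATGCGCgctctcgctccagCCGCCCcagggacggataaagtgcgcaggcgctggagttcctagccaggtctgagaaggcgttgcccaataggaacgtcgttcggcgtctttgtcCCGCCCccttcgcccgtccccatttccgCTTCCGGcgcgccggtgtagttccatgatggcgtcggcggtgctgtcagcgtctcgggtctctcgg
Cox7a2 (chr9:79759804-79760103, minus strand): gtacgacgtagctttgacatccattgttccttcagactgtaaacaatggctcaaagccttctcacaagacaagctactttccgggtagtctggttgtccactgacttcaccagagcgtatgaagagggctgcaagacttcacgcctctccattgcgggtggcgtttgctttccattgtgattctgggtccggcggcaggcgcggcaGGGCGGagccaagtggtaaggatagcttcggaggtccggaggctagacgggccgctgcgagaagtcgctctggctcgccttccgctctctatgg
Cox7a1 (chr7:30183921-30184220, plus strand): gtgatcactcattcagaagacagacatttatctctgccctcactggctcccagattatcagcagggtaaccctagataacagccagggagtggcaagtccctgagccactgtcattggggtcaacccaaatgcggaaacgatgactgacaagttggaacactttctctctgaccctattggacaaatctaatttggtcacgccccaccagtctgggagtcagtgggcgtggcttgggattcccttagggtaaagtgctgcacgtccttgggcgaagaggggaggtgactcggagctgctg
Counted with the first transcribed base as 0, Cox6a1 holds the NRF1 palindrome at position -162 and the ETS core at -16, with SP1 boxes at -139 and -44. Cox7a2 holds 1 SP1 box at -44, and the muscle isoform Cox7a1 holds none of these letters in this window.

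Among the 69 promoters' genes, 7 held the NRF1 palindrome, which is 10.1% of them against 1.07% of the 27025 genes of the table. Those 7 were Ndufa11 of complex I, the assembly factors Ndufaf4 and Ndufaf5, Uqcrc1 of complex III, Cox6a1, and Atp5g2 and Atp5k of complex V. The ETS core lay in 18 member genes, or 26.1% against 9.93% of the table. It stood in the promoters of both matched complex II genes, Sdhb and Sdhd, and of 6 of 14 matched complex V genes. The YY1 core lay in 11 members (15.9% against 3.19%) and the SP1 box in 34 (49.3% against 38.2%). TATA boxes were found in 8.70% of members and 15.7% of the table, and the muscle E-box in 5.80% and 18.3%. The members had passed the detection filter, while the genes of the table were not filtered, and shares among detected genes alone were not computed. These are shares of promoters that hold the letters, and describe no binding.

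As a check of the labels, the brightest Cited2 probe was detected in 6 of 6 wildtype embryos, with signals of 1615.5 to 4210.3. Among Cited2 -/- embryos it was detected in 1 of 6, High fat replicate 3, with a signal of 119.7. The 12 arrays also formed 2 sets of 6 that the groups do not explain, divided here at the largest gap on the first principal component of all tested probes, which held 47.7% of the variance. Set A held replicate 1 of all groups and replicate 2 of both High fat groups, and set B the others; each set held 3 Cited2 -/- arrays, while set A held 4 of the High fat arrays and set B held 2. The median variation between beads of bright probes was 19.5% to 21.9% for the arrays of set A and 21.9% to 24.3% for those of set B. This division was made with the data in view, the sources do not say what it stands for, and values with the set in the model or within sets are given below. Defining markers of other tissues also varied between embryos: the mean level of 11 yolk sac visceral endoderm genes, relative to the mean over the 12 embryos, ran on the log2 scale from -1.40 to 0.75 in wildtype and from -0.70 to 1.67 in Cited2 -/- embryos, and 5 somite genes ran from 0.11 to 0.55 in wildtype and from -0.55 to -0.15 in Cited2 -/- embryos. Xist, the RNA of the inactive X chromosome of female cells, was detected in all 3 High fat Cited2 -/- embryos and in 1 embryo of each other group. At its brightest probe these 6 embryos had log2 signals of 8.84 to 10.56, and the other 6 of 4.29 to 4.48. The Y-linked gene Eif2s3y ran the other way, at 4.30 to 4.54 and at 5.39 to 7.10. Kdm5d, also Y-linked, separated the same embryos, and the probe of Uty did not. The sexes that these genes mark were thus unevenly spread over the groups. The part of these markers and genes in the results below was not tested.

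Loss of Cited2 changed no respiratory chain probe past the threshold. In limma, with p-values adjusted over all tested probes, 0 of 115 probes had an adjusted p under 0.05 for Cited2 -/- against wildtype averaged over diets, where the share among all tested probes was 0.0714%. At an unadjusted p under 0.05 the count was 1 of 115, against 3.35% of all tested probes. Taking each gene at its brightest probe, the median log2 difference was 0.012 over the 81 genes and 0.001 over all tested genes. Above 0 lay 64 of 115 probes, against 49.9% of all tested probes. For 99 of 115 probes (86.1%, against 83.9% of all) the 95% interval of the difference stayed within 1.5-fold either way. On the Control diet alone 0 of 115 probes passed (0.0408% of all tested probes), with a count of 1 at an unadjusted p under 0.05 (1.62% of all), and for 78 of 115 the interval stayed within 1.5-fold (61.9% of all). On the High fat diet 0 passed (0.0153% of all), with 0 at an unadjusted p under 0.05 (3.38% of all), and 79 of 115 intervals stayed within 1.5-fold (59.6% of all). The median differences were 0.009 and 0.019 on these diets.

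Maternal High fat diet likewise called 0 of 115 probes averaged over genotypes, where 0% of all tested probes passed. At an unadjusted p under 0.05 there were 7 member probes, or 6.09%, against 11.8% of all tested probes. The median difference of the 81 genes was 0.037 on the log2 scale, beside 0.048 over all tested genes. With the array set in the model these were 0.013 and 0.016. Above 0 lay 69 of 115 probes, against 55.3% of all. Intervals stayed within 1.5-fold for 86 of 115 probes (74.8%, against 73.7% of all). Within wildtype embryos 0 probes passed, with 3 at an unadjusted p under 0.05 (4.16% of all) and 73 intervals within 1.5-fold (51.3% of all). Within Cited2 -/- embryos 0 passed, with 2 at an unadjusted p under 0.05 (6.15% of all) and 70 intervals within 1.5-fold (51.1% of all). The interaction of diet and genotype called 0 of 115, with 2 at an unadjusted p under 0.05 (1.26% of all), and its wider intervals stayed within 1.5-fold for 52 of 115 probes (45.2%, against 23.6% of all). In these 3 comparisons 0% of all tested probes passed. The precision is limited by the number of arrays: the median standard error of a member gene was 0.106 for the averaged effects and 0.213 for the interaction.

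**Figure D1:**
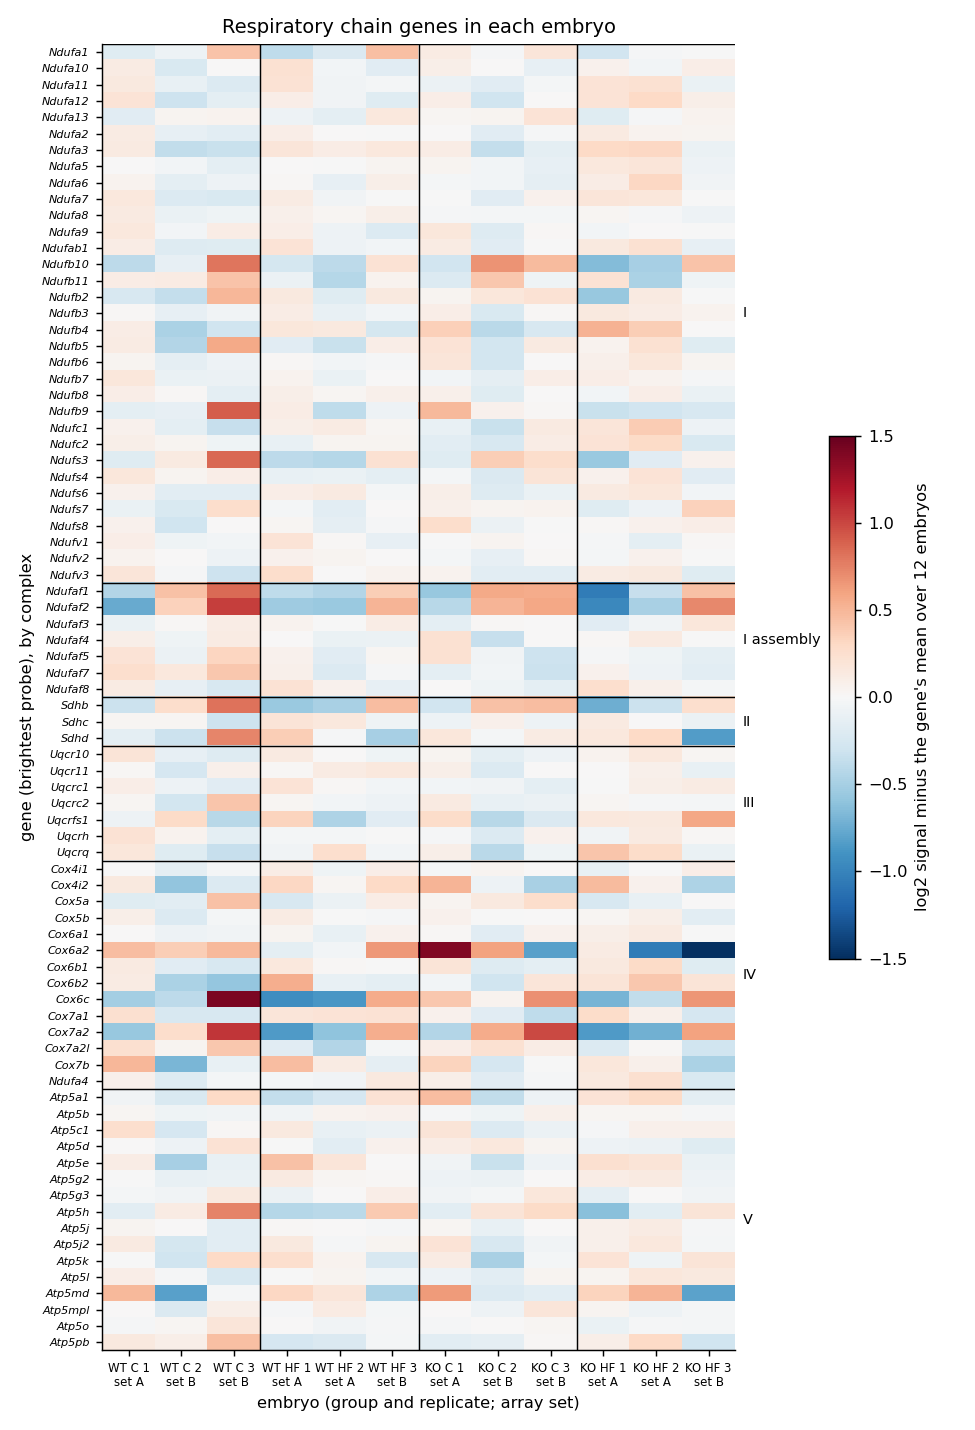
Log2 signal of each tested respiratory chain gene (rows, by complex; brightest probe; without the pseudogene) in each of the 12 embryos (columns, by group and replicate, with the array set), relative to the gene's mean over the 12 embryos; C is Control diet, HF is High fat diet, KO is Cited2 -/- and WT is wildtype, and colours stop at 1.5 either way. Cox6a2 and Cox6c vary widely, while Ndufaf1, Ndufaf2, Sdhb and Cox7a2 are lower in the embryos of set A than in those of set B.

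**Figure D2:**
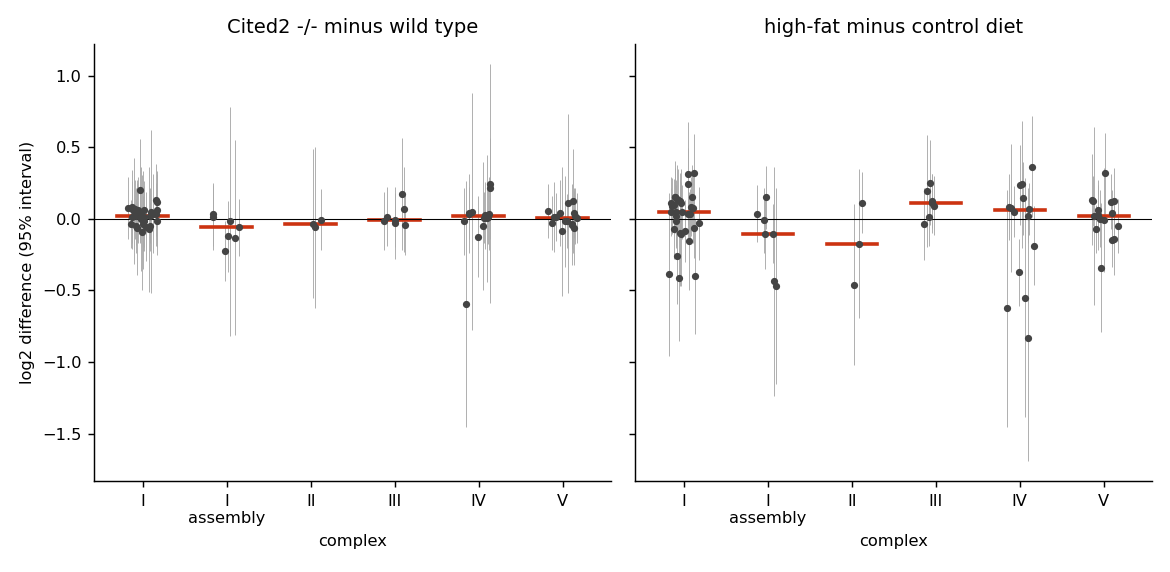
Log2 difference of each tested gene (points, brightest probe) with its 95% interval (thin lines) by complex, for Cited2 -/- minus wildtype (left) and High fat minus Control diet (right); thick bars are medians of a complex. Medians run from -0.060 (assembly factors) to 0.023 (complex I) on the left. On the right they run from -0.174 (complex II) to 0.107 (complex III). Cox6a2 is the lowest point of complex IV in both panels.

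Complex I, the largest group, showed a median genotype difference of 0.023 over 33 genes. Its extremes were Ndufb9 at -0.09 ± 0.18 (SE) and Ndufb4 at 0.20 ± 0.16, both accessory subunits, and neither passed. For diet, the complex I median was 0.048, or 0.024 with the array set in the model, with Ndufs3, a core subunit, lowest at -0.42 ± 0.20 (-0.23 with the array set in the model) and Ndufa3, an accessory subunit, highest at 0.32 ± 0.13 (adjusted p = 0.410). Ndufa3 was measured by 2 probes whose values correlated at 0.963 over the embryos, and the second gave 0.35 ± 0.12. At the brighter Ndufa3 probe the log2 signals were 12.82, 12.31 and 12.35 in Control wildtype replicates 1 to 3, and 12.86, 12.79 and 12.84 in High fat wildtype replicates. They were 12.80, 12.32 and 12.53 in Control Cited2 -/- replicates and 12.98, 12.99 and 12.58 in High fat Cited2 -/- replicates. The diets overlap, since Control replicate 1 of either genotype, on set A, lies among the High fat values, and the difference was 0.21 with the array set in the model. Of single comparisons, the dimmer probe of Ndufb8, an accessory subunit, stood at -0.30 ± 0.15 for genotype on the Control diet and at -0.17 ± 0.11 over both diets. The brighter Ndufb8 probe gave -0.05 over both diets, and the 2 probes correlated at 0.406 over the embryos. Ndufa12 stood at 0.25 ± 0.16 and a dim probe of Ndufv3 at -0.28 ± 0.23 for genotype on the High fat diet, and Ndufb9 at -0.48 ± 0.26 for diet in Cited2 -/- embryos. Ndufs4, with 0.27 ± 0.20 for the interaction, had probes that disagreed, as described below.

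The 7 assembly factors of complex I, which build the enzyme and are not part of it, had a median genotype difference of -0.060 and a median diet difference of -0.103. With the array set in the model the latter was -0.061. Ndufaf7, a methyltransferase that modifies a complex I core subunit, was the member with the smallest unadjusted p for genotype, at -0.23 ± 0.09 (adjusted p = 1.00). Its log2 signals were 7.36, 7.27 and 7.51 in Control wildtype embryos and 6.96, 7.07 and 6.78 in Control Cited2 -/- embryos, which do not overlap. On this diet 2 of 115 member probes, of Ndufaf7 and Atp5pb, were free of overlap between genotypes, and 5.06% of all tested probes were. In High fat embryos they were 7.18, 6.90 and 7.09 in wildtype and 7.17, 7.03 and 6.95 in Cited2 -/-, which do. The genotype difference was -0.45 ± 0.13 on the Control diet, and the interaction was 0.44 ± 0.19, neither past the threshold. Its diet difference in wildtype embryos was -0.32 ± 0.13. Ndufaf5, another of these assembly factors, was at -0.19 ± 0.16 for genotype on the Control diet. Ndufaf8 marked the upper end in both averaged effects, at 0.03 ± 0.10 for genotype and 0.15 ± 0.10 for diet, while Ndufaf1 was lowest for diet at -0.47 ± 0.31, or -0.13 with the array set in the model.

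Complex II was represented by Sdhb, the iron-sulphur subunit, and the membrane anchors Sdhc and Sdhd. Genotype differences were -0.06 ± 0.26 for Sdhb, -0.01 ± 0.10 for Sdhc and -0.04 ± 0.24 for Sdhd. For diet they were -0.46 ± 0.26, 0.11 ± 0.10 and -0.17 ± 0.24, and none passed. In Sdhb the log2 signals were 9.03, 9.62 and 10.17 in Control wildtype replicates 1 to 3, 8.79, 8.86 and 9.81 in High fat wildtype, 9.07, 9.79 and 9.81 in Control Cited2 -/-, and 8.62, 9.03 and 9.61 in High fat Cited2 -/- replicates. All 6 set A embryos lie below all 6 set B embryos, and with the set in the model the diet difference of Sdhb was -0.18 and that of Sdhd -0.30. Sdhd was dim, and 11 of 12 arrays detected it.

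In complex III the genotype median was -0.010 over 7 genes, between Uqcr11 at -0.04 ± 0.09 and Uqcrfs1, the Rieske iron-sulphur protein, at 0.17 ± 0.18. Diet differences ranged from Uqcrc2, a core subunit, at -0.04 ± 0.11 to Uqcrq, a small subunit, at 0.25 ± 0.14, with a median of 0.107 that became 0.060 with the array set in the model. Uqcrfs1 was also among the smallest p for genotype on the High fat diet, at 0.39 ± 0.25, but only 5 of 12 arrays detected its probe.

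Complex IV held the members with the widest spread. The genotype median of its 14 genes was 0.019, with Cox6a2 lowest at -0.60 ± 0.39 and Cox6c highest at 0.25 ± 0.38. For diet the median was 0.059, or 0.003 with the array set in the model, with Cox6a2 lowest at -0.83 ± 0.39 (adjusted p = 0.426) and Cox6b2 highest at 0.36 ± 0.16 (adjusted p = 0.422). Among the widely used subunits, Cox4i1 differed by 0.01 ± 0.08 for genotype and 0.05 ± 0.08 for diet. Cox6a1 gave 0.04 ± 0.08 and 0.07 ± 0.08, Cox6b1 gave 0.03 ± 0.12 and 0.14 ± 0.12, and Ndufa4 gave 0.02 ± 0.11 and 0.08 ± 0.11. Cox7b stood at -0.05 ± 0.21 and 0.08 ± 0.21, and Cox7a2 at 0.05 ± 0.38 and -0.63 ± 0.38. With the array set in the model the diet values were 0.04 for Cox6b1, -0.12 for Cox7b, whose sign turned, and -0.20 for Cox7a2. Among the tissue-restricted isoforms, Cox4i2, known from lung, gave 0.00 ± 0.20 and 0.24 ± 0.20, Cox7a1, the heart and skeletal muscle isoform, gave -0.13 ± 0.13 and 0.23 ± 0.13, and Cox6b2, known from testis, gave 0.21 ± 0.16 for genotype. With the array set in the model the diet values of Cox4i2 and Cox7a1 were 0.08 and 0.13. No isoform passed in either averaged effect.

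Cox6a2 varied most of all members, with an SD of 0.919 over the 12 embryos. The log2 signals were 7.08, 6.98 and 7.09 in Control wildtype replicates 1 to 3 and 6.47, 6.57 and 7.26 in High fat wildtype replicates. In Control Cited2 -/- replicates they were 8.00, 7.22 and 5.79, and in High fat Cited2 -/- replicates 6.73, 5.56 and 4.56, of which the last was not detected. The highest and the lowest embryos were thus both Cited2 -/-, and each of the 4 groups overlaps at least 1 other. The embryo with the lowest value also had, of all 12, the highest mean levels of yolk sac endoderm (1.67), primitive erythroid (1.71) and trophoblast markers (1.20). Its mean levels of somite (-0.55) and neural tube markers (-0.61) were the lowest, all relative to the 12-embryo mean on the log2 scale. The trophoblast mean held 2 genes, and Plac1 was not highest in this embryo, at 8.95 against 9.31 in High fat wildtype replicate 1. The neural tube mean held 4 genes, of which Otx2 went the other way, at 9.96, above all wildtype embryos. Zic1 was not lowest in this embryo either, at 4.71 against 4.45 in High fat Cited2 -/- replicate 2. Nor were the somite genes Foxc2, Meox1 and Uncx, with Uncx at 4.77 against 4.59 in Control Cited2 -/- replicate 2. Of the erythroid genes only Hba-a1 was highest in this embryo, with Hbb-y at 8.12 against 8.87 in Control wildtype replicate 3. Of the yolk sac genes Lrp2 was not highest, at 10.93 against 11.03 in Control Cited2 -/- replicate 3. The 3 embryos with the lowest Cox6a2 signals, all Cited2 -/-, were among the 6 in which Xist was detected. The rest of those 6, at 7.08, 6.73 and 6.57, lay among the embryos without Xist, at 6.47 to 8.00. In group means the level was 7.05 ± 0.06 (SD, n = 3) in Control wildtype, 6.76 ± 0.43 in High fat wildtype, 7.0 ± 1.12 in Control Cited2 -/- and 5.62 ± 1.09 in High fat Cited2 -/- embryos, so that the first 3 lie within their spread. For diet in Cited2 -/- embryos the difference was -1.38 ± 0.56 (limma adjusted p = 0.788), for genotype on the High fat diet -1.14 ± 0.56 (adjusted p = 1.00) and for the interaction -1.10 ± 0.79 (adjusted p = 1.00). Without High fat Cited2 -/- replicate 3, in which the brightest Cited2 probe was detected, the first was -0.86 and the second -0.62. The averaged genotype and diet differences were then -0.33 and -0.57. Without Control Cited2 -/- replicate 1, the highest embryo, the diet difference in Cited2 -/- embryos was -0.88. The genotype difference averaged over diets was 0.28 within set A and -1.61 within set B, opposite in sign, while the diet difference was -1.21 and -0.86.

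The level of Cox6a2 was set beside that of heart muscle genes after their likeness had been noticed in these data, so that the p-values here describe the relation and are not independent evidence of it. The mean of 14 tested cardiac muscle genes, relative to the mean over 12 embryos, ran from 0.31 to 0.51 in Control wildtype, from -0.20 to 0.42 in High fat wildtype, from -0.36 to 0.49 in Control Cited2 -/- and from -0.97 to -0.27 in High fat Cited2 -/- embryos. Over the 12 embryos its correlation with Cox6a2 was r = 0.942 (permutation p = 2e-05, the smallest that the resamples can give, adjusted over 4 relations 8e-05) and Spearman's rho was 0.930 (permutation p = 4e-05, adjusted 0.00016). Leaving out High fat Cited2 -/- replicates 2 and 3, which lay farthest from the median of the cardiac mean, gave r = 0.849, and r came to 0.931 within set A and 0.992 within set B. Of the other isoforms, Cox7a1 had r = 0.137 and Cox4i2 r = 0.245 (permutation p = 0.663 and 0.441, adjusted 0.663 and 0.588), their rho values were 0.098 and 0.175, and without those 2 embryos r was -0.08 and 0.01. Within set A their r was 0.006 and 0.318, within set B 0.453 and 0.510, and with group means removed 0.586 and 0.703, where that of Cox6a2 was 0.945 and that of Cox6b2 -0.513. Cox6b2 had r = -0.696 (permutation p = 0.0102, adjusted 0.0204), rho = -0.804 (permutation p = 0.00276, adjusted 0.00552) with r = -0.717 without those 2 embryos, -0.666 within set A and -0.848 within set B. Among the cardiac genes 0 of 14 passed in limma for either averaged effect. At an unadjusted p under 0.05 lay 3 for genotype (3.61% of all tested genes) and 6 for diet (12.5% of all). The genotype median was -0.35, or -0.03 within set A and -0.77 within set B. The diet median was -0.48, or -0.52 within set A and -0.50 within set B. In whole embryos fewer cells of a type and less RNA per cell cannot be told apart.

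**Figure D3:**
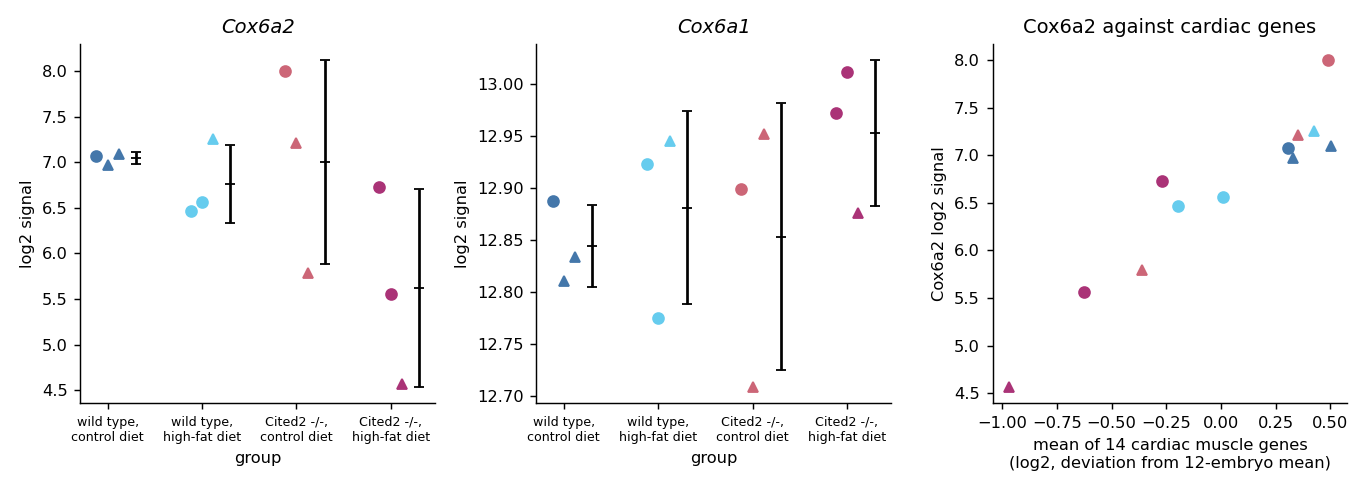
Log2 signal of Cox6a2 (left) and of Cox6a1 (middle) in each embryo by group, with the group mean and SD (bars, n = 3), and Cox6a2 against the mean of 14 cardiac muscle genes (right); circles are array set A, triangles set B, and colours are the groups as in the left panel. The vertical axes differ in range: Cox6a2 runs from 4.56 to 8.00 and Cox6a1 from 12.71 to 13.01.

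Cox7a2l, a relative of Cox7a2 that was counted here in complex IV, was the member with the smallest unadjusted p for diet. Its log2 signals were 11.07, 10.86 and 11.23 in Control wildtype and 10.92, 11.05 and 10.94 in Control Cited2 -/- replicates 1 to 3. On the High fat diet they were 10.66, 10.38 and 10.80 in wildtype and 10.62, 10.84 and 10.53 in Cited2 -/- replicates. All 6 High fat embryos lie below all 6 Control embryos, but narrowly, with 10.84 the highest of the former and 10.86 the lowest of the latter. Non-overlap of this kind was seen in 1 of 115 member probes and in 0.475% of all tested probes. The difference was -0.38 ± 0.11 with an adjusted p of 0.401, not past the threshold. It kept its size within set A (-0.37) and within set B (-0.36), and was -0.44 ± 0.15 in wildtype and -0.31 ± 0.15 in Cited2 -/- embryos. For genotype averaged over diets, 0 of 115 member probes were free of overlap, against 0.250% of all.

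Complex V had a genotype median of 0.009 and a diet median of 0.023 over 16 genes, and with the array set in the model the latter turned to -0.016. Atp5h, a subunit of the peripheral stalk, was lowest in both, at -0.09 ± 0.21 and -0.34 ± 0.21, and the diet value was -0.14 with the array set in the model. Atp5a1, the alpha subunit of the head, was highest for genotype at 0.12 ± 0.17, but its other probe gave -0.07. Atp5e, the epsilon subunit, was highest for diet at 0.32 ± 0.13 (adjusted p = 0.413), and was 0.22 with the set in the model. The genes for the membrane ring, Atp5g2 and Atp5g3, differed by 0.01 ± 0.08 and -0.03 ± 0.09 for genotype and by 0.12 ± 0.08 and -0.05 ± 0.09 for diet. Atp5pb, another stalk subunit, was at -0.32 ± 0.17 for genotype on the Control diet, at -0.40 ± 0.17 for diet in wildtype embryos and at 0.52 ± 0.23 for the interaction, without passing. A dim probe of Atp5o, the subunit that links stalk and head, gave -0.47 ± 0.20 for diet (adjusted p = 0.416), and another gave -0.36 ± 0.17 for diet in wildtype embryos. The 3 probes of Atp5o ranged from -0.47 to -0.07 for diet.

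Between the array sets the members differed about as often as all tested probes. Of 115 member probes 26, or 22.6%, had a limma adjusted p under 0.05 between the sets, beside 24.2% of all. Set B was the higher in 14 of these (14.0% of all tested probes) and the lower in 12 (10.2% of all). This is a description of the sets, since the split came from the same values. Higher in set B were Cox7a2 by 1.28 ± 0.14 on the log2 scale, Ndufaf2 by 1.23 ± 0.14, Ndufaf1 by 1.03 ± 0.13 and Sdhb by 0.84 ± 0.12, while Atp5md, a small ATP synthase subunit, was at -0.91 ± 0.14 and Cox7b at -0.60 ± 0.13. In Cox7a2 the signals of set A lay between 5.59 and 6.01 and those of set B between 6.71 and 7.52, whichever the group.

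**Figure D4:**
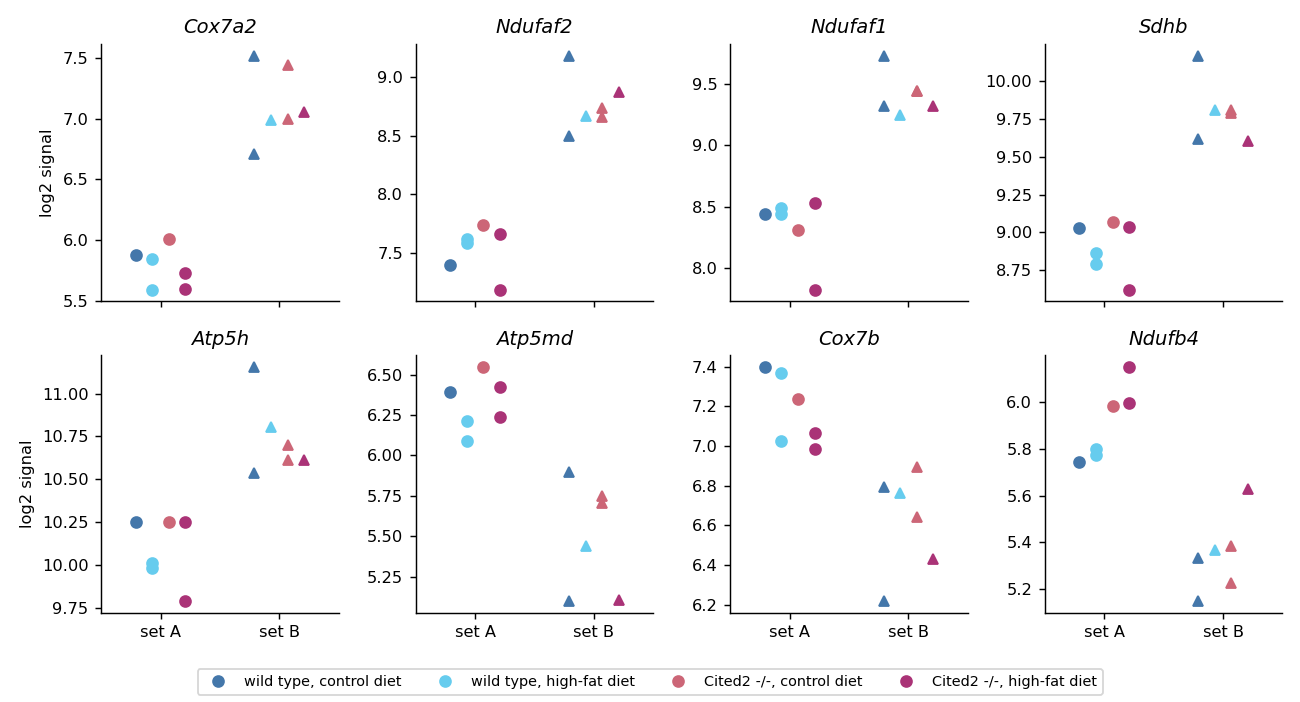
Log2 signal of 8 members in the embryos of array set A (circles) and set B (triangles), coloured by group. The top row and Atp5h are higher, and Atp5md, Cox7b and Ndufb4 lower, in set B, with wildtype and Cited2 -/- embryos of both diets on each side.

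Probes of one gene did not always tell the same story. Of the members, 26 genes had 2 or more tested probes, and in 14 of them every pair correlated above 0.5 over the embryos, while in 6 at least 1 pair correlated below 0. The brightest of 4 Ndufs4 probes differed by -0.11 between sets, and the other 3 by 0.71, 1.41 and 1.42. Among the 4 Atp5pb probes the set difference ran from -0.30 to 0.75. Differences of these genes therefore depend on the probe, and 1 further probe, the dimmest of Atp5j, was detected on 4 arrays and on none of the Control wildtype group.

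The spread between embryos differed by complex. The median SD over the 12 embryos was 0.156 for the 81 genes and 0.226 for all tested genes, with medians by complex from 0.128 in complex III to 0.416 in complex II. Signal levels were not matched between these sets of genes. After group means were removed, the median correlation between pairs of member genes was 0.239, and that between all tested genes 0.063. With the array set removed too, these were 0.242 and 0.010. As a description over 12 arrays that all genes share, pairs within a complex had a median of 0.287 after both were removed. Pairs from different complexes had one of 0.226. By complex the medians were 0.261 in complex I, 0.192 in its assembly factors and -0.355 in complex II, which had 3 pairs only. They were 0.00045 in complex III, 0.379 in complex IV and 0.312 in complex V. The median level of the 81 genes, relative to the 12-embryo mean, lay at -0.02 ± 0.11 (SD, n = 3) in Control wildtype, 0.01 ± 0.05 in High fat wildtype, -0.02 ± 0.08 in Control Cited2 -/- and 0.04 ± 0.06 in High fat Cited2 -/- embryos, which overlap.

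Other genes of mitochondrial respiration were described by lists, whose counts at an unadjusted p under 0.05 stand beside 3.61% of all tested genes for genotype and 12.5% for diet. Of the 36 tested assembly factors and carriers of the chain, 0 passed in limma for genotype or diet, with 0 and 2 at an unadjusted p under 0.05 and medians of -0.01 and -0.04. Of 16 regulators of mitochondrial biogenesis and mitochondrial DNA 0 passed, with 1 and 4 at an unadjusted p under 0.05, and their widest values were -0.41 for Ppargc1a, a coactivator of mitochondrial biogenesis, in the genotype effect and -0.83 for Tfb1m, an rRNA methyltransferase of the mitochondrion, in the diet effect. Tfb1m was 1.51 higher in set B than in set A, and with the array set in the model its diet value was -0.33 and that of Ppargc1a -0.51, then the widest of the list. Both probes were dim, with Ppargc1a detected on 8 of 12 arrays and Tfb1m on 9. In the tricarboxylic acid cycle and pyruvate dehydrogenase list 0 of 17 passed, with 1 and 3 at an unadjusted p under 0.05 and medians of -0.04 and -0.13, the latter -0.05 with the array set in the model. Among 73 mitochondrial ribosomal protein genes 0 passed, with 0 and 5 at an unadjusted p under 0.05 and medians of -0.004 and -0.024. Of 8 genes encoded in the mitochondrial DNA, among them the complex I subunits ND1, ND4, ND4L, ND5 and ND6, 0 passed and 0 had an unadjusted p under 0.05 in either effect, with medians of 0.14 for genotype and -0.08 for diet. Within set A the former was 0.25 and within set B -0.05.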

How the data were processed

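Total RNA of 12 embryos was measured on Illumina mouse BeadChips. The deposited average signal is a bead intensity on a linear scale, which the authors exported from BeadStudio 3.2.6, per the submitters' processing notes, and it can be negative. The deposited detection p-value places a probe against negative control beads, and the deposited detection score is a fraction equal to 1 minus it. The authors' processed table holds log2 values of unstated normalization, with column medians of 4.97 to 5.03. Per the file headers, bead standard deviations, also intensities, were deposited.

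Here, the bead signals were corrected for background and quantile-normalized by neqc in limma 3.58.1 in R 4.3.3 (offset 16), and 16584 to 18853 of 45281 probes were detected per array. A mean per group was fitted over all embryos with lmFit and eBayes, 7 comparisons were drawn, and p-values were adjusted over 19595 probes by the Benjamini-Hochberg method. Errors are standard errors unless named SD. A gene was taken at its brightest probe, the one with the highest mean log2 signal, which is named through the platform annotation. Apart from this ranking of a gene's probes by brightness, no probe's level was set against another's. The code was tested on simulated data. Named genes are, per comparison, the 4 with the smallest p where fewer passed, each complex's extremes in the averaged effects, complex II and the isoform pairs.

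Members and lists were chosen with earlier results of these data known. The list of mitochondrially encoded genes was meant to take symbols starting with mt-, which none had, so the platform's own symbols were used. That change, the array sets by principal component, the cardiac correlations (100000 resamples, two-sided), the look at Xist and Y-linked genes, and the promoter motifs and promoters printed were chosen after the data were seen. The array sets planned from bead variation set apart 1 array only. Alternatives covered background correction, scaling, the detection filter, array weights, blocks and single embryos left out.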

Additional observations from a re-analysis of the deposited data

How the results depend on the processing

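In the 7 comparisons the count of member probes past the threshold was 0, and it stayed 0 under the alternatives computed, leave-one-out included (0 to 0), apart from 4 counts. With array weights it was 30 for diet averaged over genotypes (15 higher, 15 lower, of 6128 probes called in all). It was 3 for genotype on the High fat diet (1325 in all) and 3 for diet in wildtype embryos (1466 in all). These weights ran from 0.39 to 7.43, and were highest for replicate 2 of High fat wildtype (7.43) and of High fat Cited2 -/- (3.38). With array weights together with the array set the count was 0 in all 7, though that estimate of the weights stopped before it converged. With the replicate number as a block it was 2 for the averaged diet effect (Cox7a2 and a second probe of Sdhb, of 338 probes called in all), and 0 with that block and the array set together. The median of member genes moved by more than the spread between embryos (SD 0.0786) to 0.147 for diet in Cited2 -/- embryos with array weights. With median scaling it was -0.0738 for genotype on the Control diet, -0.0794 for diet in wildtype embryos and 0.102 for the interaction. Within set B it was -0.0762 for genotype on the High fat diet and -0.0911 for the interaction, and within set A -0.0453 for diet in wildtype embryos; these sets hold fewer samples. The cause of the other changes was not tested. Leaving out 1 embryo gave medians of -0.013 to 0.029 for the averaged genotype effect and 0.013 to 0.074 for the averaged diet effect, -0.039 to 0.048 and -0.013 to 0.050 for genotype on the Control and High fat diets, -0.001 to 0.081 and 0.00017 to 0.114 for diet in wildtype and Cited2 -/- embryos, and -0.021 to 0.065 for the interaction; a lone embryo left in a group is assumed to vary like the others. Of 1906 values of the 71 named gene results, 17 passed the threshold, 16 with array weights, and 120 values in 32 results had the opposite sign without being called in either fit. Numbers in the sample titles are shared by 1 embryo of each genotype, and the replicate block by title number called 0 members; deviations of same-numbered embryos correlated at -0.53 to 0.37 over 6 pairs, and for the replicate number at -0.26 to 0.68 over 18 pairs, of which 13 were above 0.1. Replicate 1 of every group lay in array set A and replicate 3 in set B, while replicate 2 fell in both. Since not every pair was above 0.1, the replicate number was not taken as a pairing. Signal over background limits Uqcrfs1, Sdhd, Cox6a2, Atp5md, Ndufb2, Ndufb4, Ndufb9 and Ndufb11, whose brightest probes were not detected on every array.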
